A study of Mus musculus with 6 samples.

Results

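Lysosomal genes were followed in BCR-ABL-driven leukaemia cells of the mouse, of the B-cell acute lymphoblastic kind (B-ALL). The set was named as 42 genes. It comprised 3 transcription factors that drive lysosomal genes, 6 membrane and sterol transport proteins, 18 acid hydrolases with their activators, and 15 subunits of the vacuolar proton pump (V-ATPase). A gene was measured where the array annotation paired a probe set with that gene alone, and the brightest such probe set by its mean over the 6 arrays stood for the gene. This found 40 of the 42, out of 22180 genes measured in all, and Glb1 and Atp6v0c were not analysed here. All 40 lay above the filter on low values, which kept 15526 genes for testing.

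RNA was hybridised to Affymetrix arrays from 3 samples given 312 nM dihydroartemisinin (DHA) and 3 given its solvent dimethyl sulphoxide (DMSO). DHA is an active metabolite of several artemisinin antimalarials. Treatment lasted 4 h. Cells of both groups carried BCR-ABL. The growth protocol names p185 and p185T315I lines that lacked Arf or p53 (Arf-/- or p53-/-), and does not say which line was on which array. The extraction protocol mentions 2 h beside 4 h, the titles of the DHA samples name 4 h and those of the DMSO samples name no time. Titles also carry a code, and 1 DMSO sample (replicate 3) and 1 DHA sample (replicate 2) share a code whose meaning is not given. Whether samples were separate cultures is not stated, so the spread behind each p-value may be technical.

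Values are log2 intensities, so a difference of 1 is a 2-fold change. Pearson correlations between arrays were 0.9925 to 0.9947 over all probe sets. Of 13 B-cell precursor markers, 11 were measured, all above the filter, and their mean level per array was 10.35 to 10.40 with DMSO and 10.28 to 10.32 with DHA, with Vpreb1 (4.78) just above the filter of 4.52. None of the 11 passed the adjusted limma test, and 5 were higher and 6 lower with DHA. An unadjusted limma p under 0.05 was found for 3 (27.3%), all lower with DHA, against 12.0% of all tested genes. Groups did not overlap for 4 (36.4%), against 15.8% of all tested genes. The 3 with an unadjusted p under 0.05 were Rag2 (log2 difference -0.53, limma adjusted p = 0.253), Cd24a (-0.16) and Igll1 (-0.12). Rag2 is part of the recombinase that joins antigen receptor gene segments, and Igll1 of the surrogate light chain. The groups of these 3 did not overlap, nor did those of Ebf1, which was higher with DHA (0.13). Pax5 was also higher (0.11), with overlap. The Rag2 difference was larger than that of any measured member. The part of these differences in the results was not tested. Macrophages are rich in lysosomes, so 12 myeloid markers were read too. Of these, 5 lay under the filter and were not tested, from S100a8 at 3.33 to Fcgr1 at 4.48, and Fcgr1 did not overlap between groups (log2 difference -0.26). The other 7 lay between 4.54 (Itgam) and 6.29 (Mrc1), with Csf3r at 5.35 and Csf1r at 5.12, and none had an unadjusted limma p under 0.05. The mean level of the 12 was 4.61 to 4.68 with DMSO and 4.63 to 4.66 with DHA. In bulk RNA, fewer cells of a type and less RNA per cell cannot be told apart.

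Lysosomes are acidic organelles that break down proteins, glycans, lipids and nucleic acids delivered by endocytosis and autophagy. The V-ATPase pumps protons into the lumen. Its membrane sector V0 holds the proton channel and its cytosolic sector V1 splits ATP. Hydrolases need this acidity to work. The MiT/TFE factors TFEB, TFE3 and MITF bind E-boxes, among them the CLEAR element found near many lysosomal genes, and the kinase mTORC1 holds TFEB and TFE3 in the cytosol by phosphorylating them. Their activity is therefore set largely at the protein level, which was not analysed here.

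No lysosomal RNA was called changed by DHA. None of the 40 members passed limma at a Benjamini-Hochberg adjusted p of 0.05 over all 15526 genes, where 14 genes passed (0.0902%). At an unadjusted p under 0.05, 6 of 40 members (15.0%) passed, against 12.0% of all tested genes. The 3 arrays of each group did not overlap for 8 of 40 (20.0%), against 15.8% of all tested genes. Both shares lay near those of the whole array.

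Most changes were small, as they were over the whole array. In 38 of 40 members the log2 difference was under 0.2 in size, against 13949 of all 15526 tested genes. The median size of the difference was 0.068 over the 40 and 0.067 over all tested genes. With its sign, the median difference over the 40 was -0.0092 against 0.0027 over all tested genes. The 95% confidence intervals of the 40 members ran from -0.43 at the lowest end (Gusb) to 0.41 at the highest (Hexa). These ends are a fall of 1.35-fold and a rise of 1.33-fold, and each interval stands unadjusted for the number of genes. The smallest change among the 14 genes that passed was 0.45. The lysosomal enzymes Ctsc and Gusb, both lower with DHA, stood apart from the other members, at -0.31 and -0.30.

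**Figure D1:**
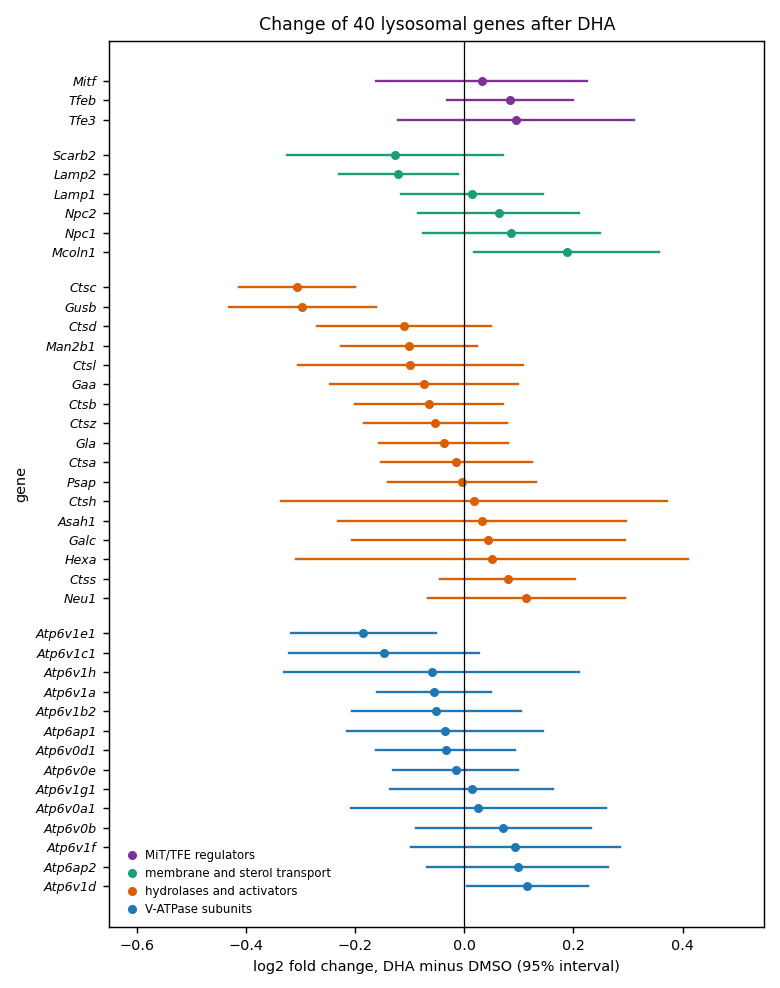
Log2 fold change (DHA minus DMSO, x axis) of the 40 measured genes (y axis), grouped by role and coloured by it. Points are limma estimates and lines their unadjusted 95% intervals (3 arrays per group); Ctsc and Gusb lie farthest from 0, and 34 of the 40 intervals hold 0.

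The transcription factors gave slightly higher estimates with DHA, and none passed the test. Tfeb, the main inducer of lysosomal genes, read 6.08, 6.07 and 6.08 with DMSO and 6.19, 6.09 and 6.20 with DHA. All 3 DHA values were above the DMSO values, by a mean of only 0.084 (SE 0.049, 95% interval -0.032 to 0.20; limma adjusted p = 0.545). Tfe3, which shares many targets with Tfeb, read 8.39, 8.23 and 8.31 with DMSO and 8.48, 8.21 and 8.51 with DHA. Its groups overlapped because DHA replicate 2 was the lowest of the 6 arrays (difference 0.095, SE 0.090; limma adjusted p = 0.715). Mitf, best known from pigment cells and osteoclasts, read 4.88, 4.91 and 4.90 with DMSO and 5.11, 4.88 and 4.80 with DHA. Here DHA replicate 1 alone was high, and without it the difference of 0.032 became -0.056.

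Promoters were read because the MiT/TFE factors act through E-boxes. RefSeq windows (GRCm38.p6) from 250 bases before to 50 bases after a gene's start held 34 of the 42 genes. Asah1, Npc1, Ctsb, Ctsh, Atp6v1b2, Atp6v1c1, Atp6v1g1 and Atp6v1h had none in the table used. Searches were for the E-box core CACGTG, for TCACGTGA, which contains that core, and for the same 8 letters with a G before and a C after, which make the full CLEAR palindrome. Each reads the same on both strands. The stretches below show 5 promoters with the core, and then the upstream windows of Ctsc and Gusb, the members with the largest changes, where the core was not found. They run 5′ to 3′ on the gene's strand, with the core in capitals. Lamp1 is at chr8:13159061-13159160 (+), Mcoln1 at chr8:3500419-3500518 (+), Ctsd at chr7:142387858-142387957 (-), Gla at chrX:134601156-134601255 (-), Atp6v1a at chr16:44139320-44139419 (-), Ctsc at chr7:88277835-88278084 (+) and Gusb at chr5:130003050-130003299 (-).
Lamp1: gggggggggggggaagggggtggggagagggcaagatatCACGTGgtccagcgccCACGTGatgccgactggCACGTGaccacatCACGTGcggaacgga
Mcoln1: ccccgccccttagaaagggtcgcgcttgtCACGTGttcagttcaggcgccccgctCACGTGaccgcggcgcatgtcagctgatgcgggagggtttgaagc
Ctsd: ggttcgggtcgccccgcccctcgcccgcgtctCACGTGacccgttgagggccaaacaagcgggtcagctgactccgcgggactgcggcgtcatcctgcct
Gla: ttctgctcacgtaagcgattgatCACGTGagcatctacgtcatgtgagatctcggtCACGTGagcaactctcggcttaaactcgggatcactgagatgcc
Atp6v1a: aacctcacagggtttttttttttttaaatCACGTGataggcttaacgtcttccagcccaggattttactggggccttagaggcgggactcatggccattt
Ctsc: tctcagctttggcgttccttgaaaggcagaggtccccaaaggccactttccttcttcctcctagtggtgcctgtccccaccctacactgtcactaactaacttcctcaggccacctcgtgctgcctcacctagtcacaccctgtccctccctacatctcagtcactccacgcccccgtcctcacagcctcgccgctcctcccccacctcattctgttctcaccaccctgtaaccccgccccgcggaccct
Gusb: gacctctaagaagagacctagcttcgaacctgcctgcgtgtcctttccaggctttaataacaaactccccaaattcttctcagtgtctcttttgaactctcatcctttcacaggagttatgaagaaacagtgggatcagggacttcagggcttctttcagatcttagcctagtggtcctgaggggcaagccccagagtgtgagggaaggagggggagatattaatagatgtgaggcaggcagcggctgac

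The Lamp1 stretch holds 4 cores within 100 bases of the start and those of Mcoln1 and Gla hold 2 each. Of the 34 genes, 12 (35.3%) had the core in a window, against 8.09% of all 27025 genes in the table. Those 27025 include genes not tested here. Among tested genes with a window, 1326 had the core and 10758 had not. By role the 12 were 6 of 15 hydrolases, 4 of 11 V-ATPase subunits, 2 of 5 membrane and transport genes and 0 of 3 regulators. The longer TCACGTGA was found in 7 of 34 (20.6%), namely Ctsa, Ctsd, Gla, Mcoln1, Atp6v0d1, Atp6v0e and Atp6v1a, against 1.12% of all genes. Among tested genes with a window, 224 had it and 11860 had not. The full palindrome was in 0 of 34 and in 0.370% of all genes. A match is a string of letters in this window and not evidence of binding.

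Members with the core lay within the range of those without it, apart from Mcoln1. The 11 measured members with it had a median log2 difference of -0.034, with 8 of 11 lower, from -0.11 (Ctsd) to 0.19 (Mcoln1). The 21 measured members without it had a median of 0.032, with 9 of 21 lower, from -0.31 (Ctsc) to 0.12 (Atp6v1d). Over the whole array, the 1326 tested genes with the core had a median of -0.0027 and the 224 with TCACGTGA 0.0074. Leaving out DHA replicate 1 turned the median of the members without the core to -0.037.

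**Figure D2:**
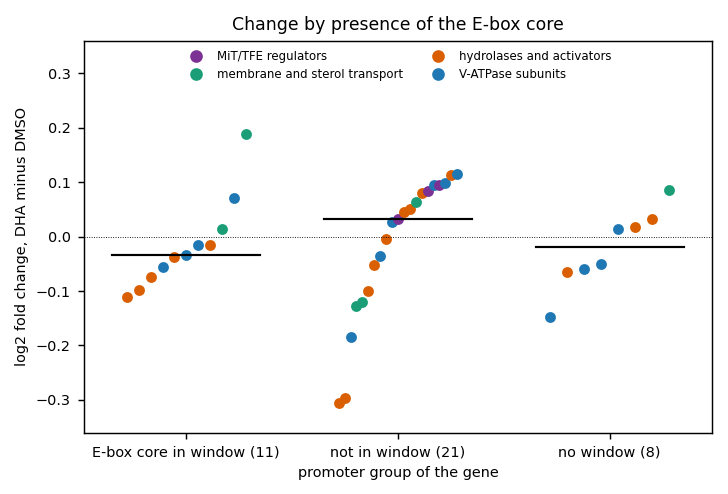
Log2 fold change (DHA minus DMSO, y axis) of the 40 measured genes by promoter group (x axis): 11 with the E-box core, 21 without it and 8 with no window in the table. Each point is a gene, coloured by role, and bars are group medians (-0.034 with the core and 0.032 without).

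Among membrane and transport proteins, 4 of 6 were higher and 2 of 6 lower, and none passed the adjusted test. Mcoln1, the lysosomal calcium channel TRPML1, read 8.95, 8.74 and 8.95 with DMSO and 9.03, 9.12 and 9.06 with DHA. The groups did not overlap, although DMSO replicate 2 was lower than the other DMSO arrays by more than the gap between the groups. The difference of 0.19 (SE 0.071, 95% interval 0.019 to 0.36; limma adjusted p = 0.369) was the largest upward estimate among the 40. Lamp2, a major glycoprotein of the lysosomal membrane with a part in chaperone-mediated autophagy, read 9.39, 9.35 and 9.38 with DMSO and 9.30, 9.22 and 9.24 with DHA. All DHA arrays were lower, by a mean of 0.12 on the log2 scale (difference -0.12, SE 0.046; limma adjusted p = 0.371).

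Lamp1, the partner glycoprotein whose promoter carries the 4 cores, read 10.49, 10.45 and 10.38 with DMSO and 10.51, 10.39 and 10.46 with DHA. These groups overlapped (difference 0.014, 95% interval -0.12 to 0.14, limma adjusted p = 0.945). Scarb2, the receptor that carries glucocerebrosidase to lysosomes, read 8.15, 8.25 and 8.06 with DMSO and 8.13, 7.87 and 8.07 with DHA. Its groups overlapped too, and the difference of -0.13 (SE 0.083) was -0.051 without DHA replicate 2. The cholesterol exporters Npc1 and Npc2 had differences of 0.086 (SE 0.068) and 0.063 (SE 0.062).

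Of 17 measured hydrolases and activators, 11 were lower and 6 higher, where 48.8% of all tested genes were lower. The median log2 difference was -0.038, and none passed the adjusted test. The groups did not overlap in 3 of 17, Ctsc, Gusb and Man2b1, each lower with DHA, a pattern seen in 8.19% of all tested genes. Ctsc encodes cathepsin C (dipeptidyl peptidase I), which activates serine proteases of immune cell granules. It read 10.40, 10.43 and 10.42 with DMSO and 10.08, 10.15 and 10.09 with DHA. The gap between the groups was wider than the spread within either. Cathepsin C RNA was thus 1.24-fold lower (log2 difference -0.31, SE 0.044, 95% interval -0.41 to -0.20), and limma gave an adjusted p of 0.0725. It was the only member to pass under any alternative: adjusted p was 0.0496 with the filter at the 50th percentile and 0.0373 with trend and robust moderation, and 0.108 to 0.325 on leaving out 1 array.

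Gusb encodes β-glucuronidase, which degrades glycosaminoglycans. It read 9.57, 9.48 and 9.54 with DMSO and 9.15, 9.24 and 9.31 with DHA. All DHA arrays lay below all DMSO arrays, with more spread among the DHA values than for Ctsc. The difference was -0.30 (SE 0.057, 95% interval -0.43 to -0.16; limma adjusted p = 0.126), or 1.23-fold lower. Neu1, the sialidase, had the largest upward estimate of its class, reading 8.04, 7.83 and 8.08 with DMSO and 8.13, 8.04 and 8.12 with DHA. Its groups overlapped (difference 0.11, SE 0.076; limma adjusted p = 0.596).

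The other cathepsins had smaller differences. Ctsd, the main aspartic protease, had a log2 difference of -0.11 (SE 0.067), Ctsl -0.099 (SE 0.087), Ctsb -0.064 (SE 0.057) and Ctsz -0.053 (SE 0.055). Ctss, the cysteine protease that trims the invariant chain in antigen-presenting cells, had 0.080 (SE 0.052), Ctsh 0.018 (SE 0.15) and Ctsa, the protective protein for β-galactosidase and neuraminidase, -0.015 (SE 0.058). In all, 6 of 8 cathepsins were lower, with a median of -0.058.

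Enzymes of glycans and sphingolipids spread to both sides of 0. Of 9, 5 were lower, with a median of -0.0039, which was the value of Psap, the precursor of the saposin activators. Man2b1, the lysosomal α-mannosidase, had -0.10 (SE 0.052) and the glycogen-degrading Gaa -0.073 (SE 0.072). The α-galactosidase Gla had -0.038 (SE 0.050), the ceramidase Asah1 0.033 (SE 0.11) and the galactocerebrosidase Galc 0.044 (SE 0.10). Hexa, a hexosaminidase subunit, had 0.051 with the widest interval of the set (-0.31 to 0.41), and DHA replicate 1 was its highest array at 6.67 and DHA replicate 3 its lowest at 6.06.

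**Figure D3:**
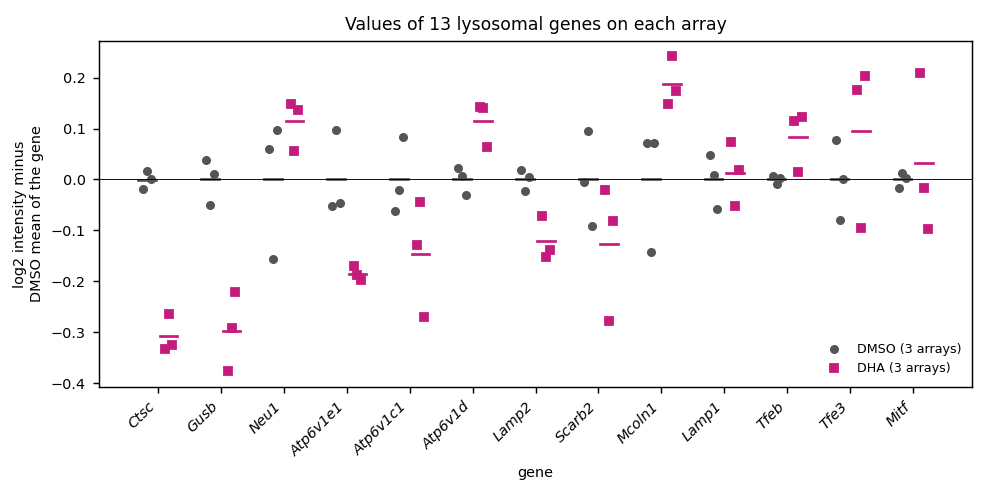
Log2 intensity minus the DMSO mean of the same gene (y axis) on each array for 13 genes (x axis). Circles are the 3 DMSO arrays, squares the 3 DHA arrays and bars group means; Ctsc and Gusb show the widest gaps between the groups, and Lamp1 shows none.

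Of 14 measured V-ATPase subunits, 8 were lower and 6 higher, with a median log2 difference of -0.025. Each difference was under 0.2 in size, as in 13949 of all 15526 tested genes. Atp6v1e1, the E subunit of the peripheral stalk of V1, read 9.22, 9.37 and 9.22 with DMSO and 9.10, 9.08 and 9.07 with DHA. Its groups did not overlap, and the DHA arrays lay close together (difference -0.18, SE 0.056, 95% interval -0.32 to -0.052; limma adjusted p = 0.278). Atp6v1d, a subunit of the central rotor, went the other way, reading 9.76, 9.75 and 9.71 with DMSO and 9.88, 9.88 and 9.80 with DHA. These groups did not overlap either (difference 0.12, SE 0.047; limma adjusted p = 0.398). Atp6v1c1, the C subunit that joins V1 to V0, read 9.64, 9.68 and 9.78 with DMSO and 9.57, 9.66 and 9.43 with DHA. Its groups overlapped through DHA replicate 2 (difference -0.15, SE 0.073; limma adjusted p = 0.489).

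The catalytic and other V1 subunits were closer to 0. Atp6v1a, which carries the catalytic sites, had a log2 difference of -0.055 with the narrowest interval of the set (-0.16 to 0.049). Atp6v1b2 had -0.051, the regulatory Atp6v1h -0.060, Atp6v1f 0.094 and Atp6v1g1 0.014. Over the 8 V1 subunits the median was -0.053, with 5 of 8 lower. In V0, the a subunit gene Atp6v0a1 had 0.026, the proteolipid Atp6v0b 0.072, Atp6v0d1 -0.034 and Atp6v0e -0.016, so 2 of 4 were lower, with a median of 0.0052. The accessory proteins Atp6ap1 and Atp6ap2 (the prorenin receptor) had -0.035 and 0.098.

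Hydrolases and proton pump subunits were then set side by side, as members of 1 organelle with different roles. Their medians of -0.038 and -0.025 differed by -0.013. Groups did not overlap in 3 of 17 hydrolases (17.6%) and 2 of 14 pump subunits (14.3%), against 15.8% of all tested genes. No p is given for this difference, since the members were chosen with earlier results known. The sign of this difference of medians was not stable: it was 0.016 without DHA replicate 3 and -0.052 without DMSO replicate 2.

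Averaged over its genes, each class also varied from array to array within a group. Relative to the DMSO mean of each gene, the mean hydrolase deviation was 0.029, -0.035 and 0.0066 on the DMSO arrays and 0.010, -0.063 and -0.091 on the DHA arrays. DHA replicate 1 therefore lay inside the DMSO range and the other DHA arrays below it. The V-ATPase mean was 0.025, -0.023 and -0.0016 with DMSO and 0.029, -0.029 and -0.035 with DHA, the same order of arrays within each group. Hydrolase mean minus V-ATPase mean was 0.0036, -0.012 and 0.0082 on the DMSO arrays and -0.019, -0.034 and -0.056 on the DHA arrays. By this measure all DHA arrays lay below all DMSO arrays, and the contrast was not tested. With all arrays, 11 of 17 hydrolases and 21 of all 40 members were lower. On leaving out each array in turn, these counts moved both ways: lower hydrolases ranged from 8, without DHA replicate 3, to 15, without DHA replicate 1, and lower members from 18, without DMSO replicate 1 or DHA replicate 3, to 29, without DHA replicate 1. None of the 40 passed the adjusted test without any 1 array.

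**Figure D4:**
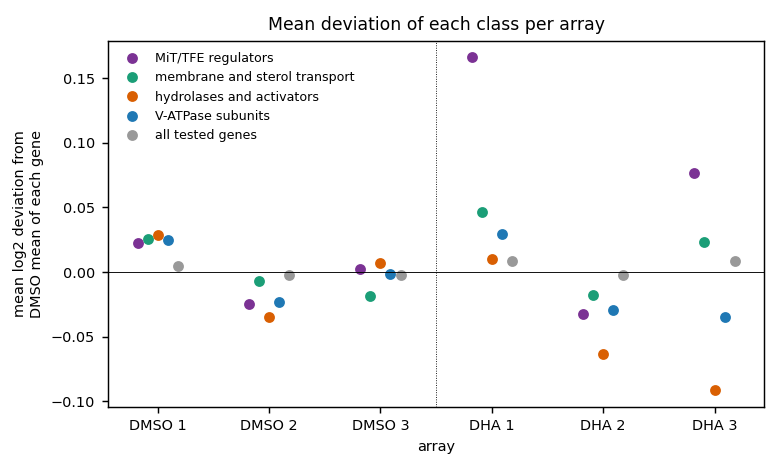
Mean log2 deviation from the DMSO mean of each gene (y axis) for each class on each of the 6 arrays (x axis); grey points are all tested genes, within 0.0087 of 0. Hydrolases are lowest on DHA replicates 2 and 3 (-0.063 and -0.091), while DHA replicate 1 lies among the DMSO arrays.

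**Figure D5:**
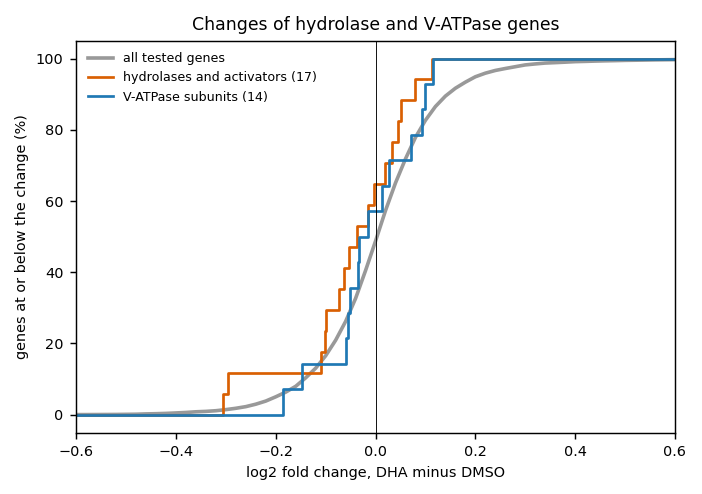
Cumulative share of genes (y axis, percent) at or below each log2 fold change (DHA minus DMSO, x axis) for 17 hydrolases, 14 V-ATPase subunits and all 15526 tested genes. The class medians are -0.038 and -0.025 against 0.0027 for all tested genes, and the lowest step of the hydrolase curve is made by Ctsc and Gusb.

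Further genes of the lysosome, of delivery to it and of TFEB control, 117 in 5 lists, held no called gene either. Of these, 102 were tested, 0 rose and 0 fell at a limma adjusted p of 0.05, and 19 of 102 (18.6%) had an unadjusted p under 0.05, against 12.0% of all tested genes. Most of these were in the list of other hydrolases, with 10 of 28 (35.7%), 7 lower and 3 higher. Hyal2, a hyaluronidase, had -0.42 (SE 0.069; limma adjusted p = 0.104), the ganglioside activator Gm2a -0.22 (adjusted p = 0.152), the acid lipase Lipa -0.19 (adjusted p = 0.221) and the iduronidase Idua 0.32 (adjusted p = 0.243), all by limma. The count of 10 was 6 without DMSO replicate 1 and between 7 and 9 without any other array.

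The remaining lists held fewer genes at an unadjusted limma p under 0.05, a threshold met by 12.0% of all tested genes. Among other V-ATPase subunits and assembly factors, 1 of 14 (7.14%) met it, the assembly factor Vma21 (-0.16). Among other membrane and transport genes, 4 of 21 (19.0%) did. They were the endolysosomal cation channel Tpcn1 (-0.43, SE 0.10, limma adjusted p = 0.195), Sidt2 (-0.21), the cystine exporter Ctns (0.17) and the chloride-proton exchanger Clcn7 (0.16). For delivery of enzymes to the lysosome, 2 of 21 (9.52%) did. They were Nagpa (-0.25), which uncovers the mannose 6-phosphate tag, and the mannose 6-phosphate receptor M6pr (-0.13). Among genes that control TFEB, 2 of 18 (11.1%) did, the Ragulator subunit Lamtor3 (0.14) and folliculin, Flcn (0.16).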

How the data were processed

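The authors deposited log2 intensities of probe sets, made with Partek version 6.6 and the robust multi-array average (RMA), per the submitters' processing notes. Their settings were not part of the sources used here. RMA pulls the fold changes of dim genes towards 0. The platform annotation gave 1 gene for 23521 of 41345 probe sets, several for 1814 and left 16010 unnamed, and symbols were updated through Entrez identifiers to RefSeq (GRCm38.p6). The brightest probe set stood for each of 22180 genes, and 6654 with a mean under the 30th percentile (4.52) were left out. DHA was compared with DMSO over 15526 genes in limma (version 3.58.1, R 4.3.3). Moderation was by empirical Bayes, tests were two-sided and the Benjamini-Hochberg adjusted p had to be at or under 0.05. The procedure was tested on simulated data, with planted changes larger than that of any member. It therefore does not show how well changes of the members' size would be found. With 3 arrays per group, their number limits the precision, and scanner files were not used here. Members, lists and tests were chosen with earlier results of these data known. Array values are given for Tfeb, Tfe3, Mitf, Lamp1, members with an unadjusted p under 0.05 and the 3 largest differences of each class; of each further list, up to 4 genes with the smallest p and any called gene were to be named. Markers of T and NK cells, of erythroid cells and megakaryocytes, and of stroma held no called gene. An unadjusted limma p under 0.05 was found for 1 of 4 tested (25%), 0 of 4 and 2 of 7 (28.6%). The share over all tested genes was 12.0%. Alternatives left out each array or both samples of the shared title code, changed the filter, normalization, probe set rule, moderation or threshold, or added a term for that code.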

Additional observations from a re-analysis of the deposited data

How the results depend on the processing

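No paired analysis was possible because replicate numbers came from accession order, and only 1 title code was shared between the groups. No member passed limma on leaving out any 1 array, with no filter or after either normalization. Nor did any pass with either probe set rule, with array weights or with the title-code term. With 1 array left out, 4 to 7 of 40 members had an unadjusted limma p under 0.05, against 1356 to 1888 of all 15526 tested genes. The count of members passing was 1, Ctsc, with the filter at the 50th percentile, with trend and robust moderation and at an adjusted p of 0.1. The count of all genes passing, 14, became 24 without DHA replicate 2 and 0 without any other single array, where limma left 1356 to 1709 genes at an unadjusted p under 0.05. Filtering at the 50th percentile gave 62 and dropping the filter 5. Normalizing gave 52 (medians) or 63 (quantiles), trend and robust moderation 62, a threshold of 0.1 gave 80 and the title-code term 41, and 0 passed without both samples of that code, with 1565 at an unadjusted p under 0.05. The cause of these shifts in the count was not tested in any setting. Without both samples, 3 members had an unadjusted p under 0.05 in place of 6, and member intervals ran from -0.63 to 0.71.

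On leaving out 1 array, the hydrolase median ranged from -0.077 to 0.0040, the V-ATPase median from -0.040 to 0.016 and their difference from -0.052 to 0.016; under the other alternatives the difference ranged from -0.016 to 0.0019. The median of members with the E-box core ranged from -0.061 to -0.0082 and that of members without it from -0.037 to 0.040; these recomputations were chosen after seeing the data. Of 40 members, 24 kept their sign in each alternative and 16 did not. Ranges that include a change of sign on leaving out 1 array were -0.056 to 0.096 for Mitf, -0.016 to 0.046 for Lamp1, -0.056 to 0.12 for Asah1, -0.062 to 0.011 for Ctsa, -0.12 to 0.13 for Ctsh, -0.11 to 0.0040 for Gaa, -0.037 to 0.15 for Galc, -0.11 to 0.19 for Hexa, -0.043 to 0.040 for Psap, -0.11 to 0.030 for Atp6ap1, -0.052 to 0.12 for Atp6v0a1, -0.032 to 0.017 for Atp6v0e, -0.087 to 0.0017 for Atp6v1b2, -0.027 to 0.056 for Atp6v1g1 and -0.14 to 0.066 for Atp6v1h. Other changes of sign were Ctsh with array weights (-0.0040), Psap (0.0056) and Atp6v0e (0.0040) after quantile normalization, Vps18 with the probe set of highest variance (0.083), and Ctsl (0.018), Psap (0.022) and Atp6v1h (0.019) without both samples of the shared code. Vps18, a subunit of the tethering complexes of the lysosome, had -0.10 with the brightest probe set. None of these genes passed the test in any setting.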

Other observations

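Of the proteins that hold TFEB at the lysosome, 5 Ragulator subunits were measured. Lamtor3 had a log2 difference of 0.14 (SE 0.051), and the other 4 had negative estimates: Lamtor2 -0.13 (SE 0.069), Lamtor4 -0.12 (SE 0.068), Lamtor5 -0.075 (SE 0.073) and Lamtor1 -0.011 (SE 0.052). None passed the adjusted test by limma, and differences between subunits were not tested.

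Some deposited values were exactly equal between arrays, to every digit. Among tested genes, 5466 of 15526 (35.2%) had at least 1 such pair, and among the members 7 of 40 (17.5%). Gaa held the same value, 6.48, on 4 of 6 arrays, and its DMSO SD was 0.0070. Mcoln1 read exactly the same on DMSO replicates 1 and 3. The part of such ties in the variance estimates was not tested.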
